A study of Mus musculus with 2 samples.

Results

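The genes described here are 8 that build cholesterol or hold back its synthesis: Hmgcs1, Idi1, Fdps, Fdft1, Sqle, Lss, Dhcr7 and Insig1. They were found by gene symbol among 32285 features, and all 8 were detected in both libraries. Of them, 7 encode enzymes and 1, Insig1, a regulator. None takes up cholesterol, so genes of cholesterol uptake are given as a separate list.

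Cells make cholesterol from acetyl-CoA through the mevalonate pathway, which also yields isoprenoids for protein prenylation, ubiquinone and dolichol. The transcription factor SREBP2 drives the genes of the pathway when sterols in the endoplasmic reticulum run low. When sterols are plentiful, the Insig proteins hold the SREBP escort protein Scap in the endoplasmic reticulum, and the targets are switched down together. Dividing embryonic cells need cholesterol for new membranes and for the processing of Hedgehog ligands.

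The series profiled single cells of the mouse embryonic stem cell line D3 on day 6 of differentiation towards cardiomyocytes, at a stage that the series names with the abbreviation CP. There was 1 library from Zbtb16 knockout cells, labelled Zbtb16_KO, and 1 from wild-type D3 cells, labelled Ctrl. Both were put through the same differentiation, and how the knockout was made and from how many clones are not given in the sources used here. With 1 library per group, no difference between them was tested, and every interval below is an exact 95% interval that covers counting error only.

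The knockout library had 9449 cells with at least 15000 UMIs and at most 10% mitochondrial UMIs, with a median of 30513 UMIs, and the control library had 6354 cells with a median of 37324 UMIs. Each captured RNA molecule carries its own tag, a UMI, and CPM gives a gene's share of all UMIs in the cells that were summed, scaled to a fixed total. Median mitochondrial shares were 5.02% in knockout cells and 4.22% in control cells, and 16 cell barcodes occurred in both libraries. Zbtb16 itself stood at 0.994 CPM in the knockout library and 22.2 CPM in the control library. Which part was deleted is not stated, and transcript counts check the genotype label only if the deletion reduces them.

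Sequences upstream of the transcription start are shown for 4 of the 5 genes that matched in the RefSeq promoter table, because the levels of the 8 genes are compared across cells below and sterol-responsive promoters share short motifs. The windows are the 250 bases before the start on assembly GRCm38.p6, on the plus strand of each gene, at chr13:119690101-119690350 for Hmgcs1, chr13:8885356-8885605 for Idi1, chr10:76531355-76531604 for Lss and chr5:28071162-28071411 for Insig1. Capitals mark a sterol regulatory element (TCACNCCAC), a CCAAT box (CCAAT, or ATTGG on the other strand) or an E-box (CACGTG), and the marked stretches do not overlap.
Hmgcs1: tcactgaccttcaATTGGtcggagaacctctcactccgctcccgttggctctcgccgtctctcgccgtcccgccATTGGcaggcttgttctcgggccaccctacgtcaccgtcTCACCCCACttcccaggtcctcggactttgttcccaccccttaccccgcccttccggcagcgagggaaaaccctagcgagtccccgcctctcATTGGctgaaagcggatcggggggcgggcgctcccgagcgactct
Idi1: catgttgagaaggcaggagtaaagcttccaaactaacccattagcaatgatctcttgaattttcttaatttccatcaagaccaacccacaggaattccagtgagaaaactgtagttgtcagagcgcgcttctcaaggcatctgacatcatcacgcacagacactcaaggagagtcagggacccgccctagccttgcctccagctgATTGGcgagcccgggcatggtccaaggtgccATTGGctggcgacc
Lss: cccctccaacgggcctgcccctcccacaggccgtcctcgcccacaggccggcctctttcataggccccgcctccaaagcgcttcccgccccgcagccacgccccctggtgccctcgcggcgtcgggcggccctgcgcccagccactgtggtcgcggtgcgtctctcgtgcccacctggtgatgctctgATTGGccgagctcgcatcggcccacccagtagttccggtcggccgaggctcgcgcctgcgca
Insig1: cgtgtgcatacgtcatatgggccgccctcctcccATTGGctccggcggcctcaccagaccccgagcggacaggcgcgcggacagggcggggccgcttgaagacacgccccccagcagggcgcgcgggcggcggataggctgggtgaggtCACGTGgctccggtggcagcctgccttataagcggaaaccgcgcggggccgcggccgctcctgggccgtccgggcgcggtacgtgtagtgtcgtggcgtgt
The Hmgcs1 window held 1 sterol regulatory element, which began 137 bases before the start, and 3 CCAAT boxes. Idi1 had 2 CCAAT boxes, Lss had 1, and Insig1 had 1 together with an E-box. Both strands were searched. Of 32851 promoters of the same length, 1.05% held the sterol regulatory element, 33.8% a CCAAT box, 6.02% an E-box and 32.7% a GC box (GGGCGG), which is not marked above. Dhcr7 has 3 starts in the table. A CCAAT box was found at 1 of them and an E-box at another. A match in these letters is a description of the window and not a binding site.

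All 8 genes had lower CPM in the knockout library when every cell was summed, and 4 of the 8 reached a 1.5-fold reduction, the size at which a gene is counted as lower here. The same size was reached downwards by 5.06% of the 8353 genes with at least 10 CPM averaged over both libraries, and upwards by 12.7%. The median log2 ratio, knockout over control, was -0.62 over the 8 genes and 0.03 over all genes measured.

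Hmgcs1 encodes a cytosolic enzyme of the first steps, upstream of mevalonate. It stood at 379 CPM in knockout cells (95% interval 377 to 381) and at 456 CPM in control cells (454 to 459), a log2 ratio of -0.27. Idi1, the isomerase that readies isoprene units for joining, stood at 116 CPM in knockout cells and 170 CPM in control cells, a log2 ratio of -0.55. Neither ratio reached 1.5-fold.

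Fdps had the furthest ratio of the 8. It encodes the synthase of farnesyl diphosphate, the branch point between sterols and the other isoprenoids. It stood at 134 CPM in knockout cells (133 to 135) and 385 CPM in control cells (383 to 388), 2.88-fold lower in the knockout library. The Fdps count is less certain than most, since 7 other mouse genes have transcripts with at least 90% identity over at least 100 bases. Of these, 6 are processed pseudogenes. The other is the protein-coding gene Gm43738, identical on the same strand over 929 of the 1382 bases of Fdps. How reads were shared out is not given. Idi1 had 4 such neighbours, Fdft1 had 2, Hmgcs1, Lss and Insig1 had 1 each, and Sqle and Dhcr7 had 0. The matches of Hmgcs1 and Lss, and that of Idi1 with Gm48574, lie on the opposite strand. Fdft1 is less certain as well, since the last 774 bases of its 3698-base transcript are identical, on the opposite strand, to a transcript of the protein-coding gene Ctsb.

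Further down the pathway, Fdft1 makes squalene, the first step given over to sterols. It stood at 93.2 CPM in knockout cells and 151 CPM in control cells, 1.62-fold lower in the knockout library. Sqle, the epoxidase that follows, stood at 116 CPM in knockout cells and 145 CPM in control cells, a log2 ratio of -0.32. Lss closes the ring to lanosterol and was 1.66-fold lower in the knockout library, at 16.9 CPM against 28.1 CPM in control cells. Dhcr7, the reductase that ends one arm of the pathway, was 2.04-fold lower, at 28.5 CPM in knockout cells and 58.1 CPM in control cells. Insig1, whose protein retains the SREBP escort and whose own gene is an SREBP target, stood at 57.2 CPM in knockout cells and 74.0 CPM in control cells, a log2 ratio of -0.37.

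Free RNA, read from barcodes with 10 to 100 UMIs, showed the same order between libraries for Fdps, at 141 CPM in the knockout library and 335 CPM in the control. With this profile subtracted at 5% of each library, the median log2 ratio of the 8 genes was -0.62.

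**Figure D1:**
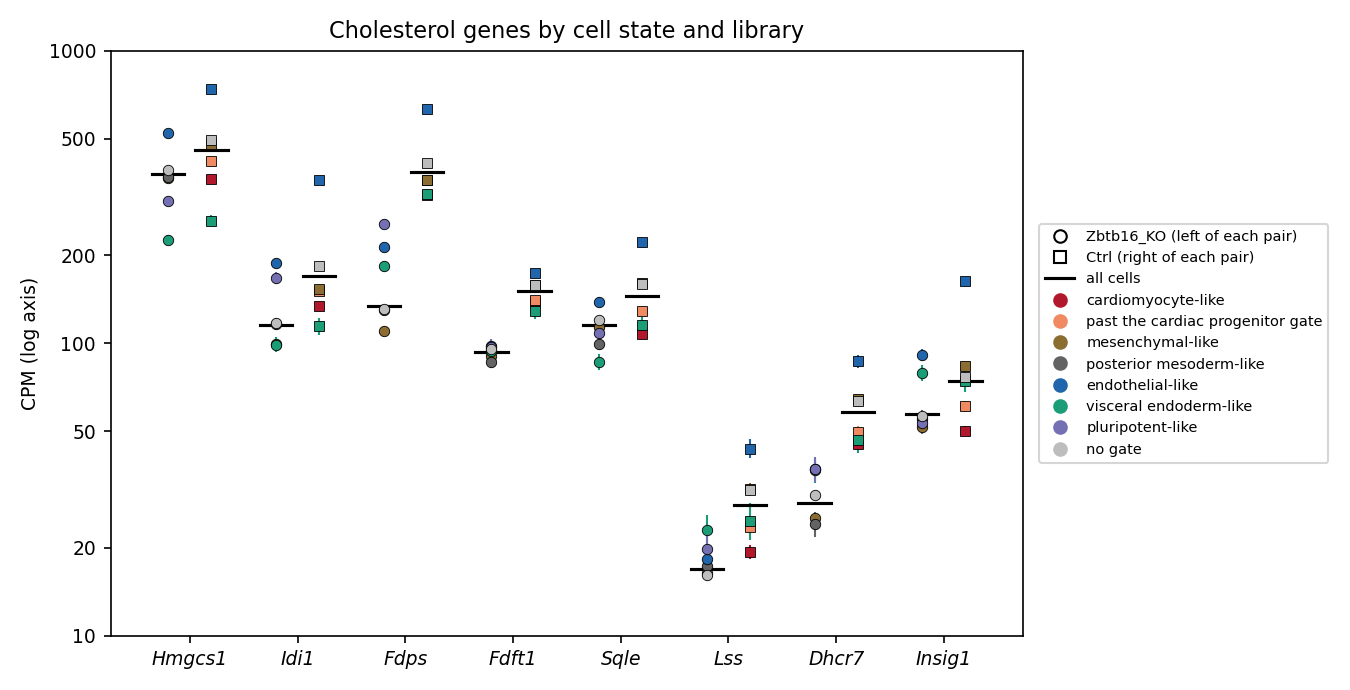
CPM on a log axis for each of the 8 genes, with Zbtb16_KO cell states as circles on the left of each pair and Ctrl cell states as squares on the right. Bars are exact 95% counting intervals, black lines are sums over all cells, and states with at least 50 cells in a library are drawn. Endothelial-like cells, in blue, lie at the top of the Ctrl column for all 8 genes.

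Cell states were gated on summed marker genes that include none of the 8. The gates gave 4406 mesenchymal-like, 467 posterior mesoderm-like, 413 endothelial-like, 204 pluripotent-like and 202 visceral endoderm-like knockout cells, with 3637 in no gate. In the control library they gave 1587 cardiomyocyte-like, 994 mesenchymal-like, 268 endothelial-like and 104 visceral endoderm-like cells, with 2325 in no gate. Cells of no gate are a remainder of unknown makeup, although they are counted as a state below. A further 983 control cells passed the cardiac progenitor gate, but their leading genes held 1 marker of that list, fewer than cardiomyocyte markers, and they keep the name of the gate alone. The makeup differed strongly, since 31 of 9449 knockout cells and 1587 of 6354 control cells passed the cardiomyocyte gate.

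Endothelial-like cells had the highest level of 6 of the 8 genes among 6 knockout states and of 8 of 8 among 6 control states. The share of all genes highest in endothelial-like cells is not given, so these counts have no background beside them. Hmgcs1 reached 522 CPM in endothelial-like knockout cells (513 to 532) and 741 CPM in endothelial-like control cells (728 to 755). Idi1 reached 188 CPM in endothelial-like knockout cells and 361 CPM in endothelial-like control cells, against 116 and 170 CPM over all cells of the knockout and control libraries. Insig1 reached 91.0 CPM in endothelial-like knockout cells and 163 CPM in endothelial-like control cells. Over the 8 genes, endothelial-like cells stood 1.05- to 1.62-fold above all cells in the knockout library and 1.15- to 2.20-fold above all cells in the control. How many of all genes have a highest state clear of the next is not given either, and the intervals cover counting error only. The endothelial interval was clear of the next state's for 8 genes in the control. In the knockout library it was clear for 4, Hmgcs1, Idi1, Sqle and Insig1. For Fdft1 and Dhcr7 it overlapped that of pluripotent-like knockout cells, at 98.2 CPM in endothelial-like against 97.2 CPM in pluripotent-like cells for Fdft1, and 37.2 against 37.1 CPM for Dhcr7. Endothelial-like cells were also deeper than most, with a median of 39184 UMIs in the knockout library and 51360.5 UMIs in the control, and the part of depth in this order was not tested.

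Visceral endoderm-like cells, the yolk-sac type of endoderm, were about as deep, with medians of 45945 UMIs in the knockout library and 49539.5 UMIs in the control. There Hmgcs1 was at its lowest in both libraries, at 225 CPM in knockout cells (217 to 234) and 262 CPM in control cells (251 to 274). Idi1 was at its lowest there too, at 98.9 CPM in knockout cells and 114 CPM in control cells, although in knockout cells its interval overlapped that of mesenchymal-like cells at 99.1 CPM. Insig1 did not follow them in either library. In the knockout library its 79.2 CPM in visceral endoderm-like cells was second to endothelial-like cells. In the control its 74.2 CPM there was above cells past the cardiac progenitor gate, at 60.9 CPM, and cardiomyocyte-like cells, at 50.3 CPM.

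Knockout exceptions to the endothelial order were Fdps and Lss. Fdps was highest in pluripotent-like knockout cells, at 256 CPM (246 to 266), ahead of endothelial-like cells at 214 CPM (208 to 220), and lowest in mesenchymal-like cells at 110 CPM. Lss was highest in visceral endoderm-like knockout cells, at 22.9 CPM, but its interval of 20.2 to 25.9 overlapped that of pluripotent-like cells at 19.7 CPM. Fdft1 hardly varied, with a 1.13-fold span over the 6 knockout states and 1.35-fold over the 6 control states. For Idi1 those spans were 1.90-fold and 3.15-fold in knockout and control states.

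Cardiomyocyte-like control cells had the lowest level of 5 of the 8 genes, and the share of all genes lowest there is not given. They held 108 CPM of Sqle, 19.3 CPM of Lss, 45.1 CPM of Dhcr7, 50.3 CPM of Insig1 and 321 CPM of Fdps. For 3 of these the interval overlapped that of visceral endoderm-like control cells, which held 115 CPM of Sqle, 46.7 CPM of Dhcr7 and 324 CPM of Fdps. Control cells were then placed by their summed cardiomyocyte markers per 10000 UMIs, in bands of under 3, 3 to 10, 10 to 30, 30 to 100, and 100 or more. Over these bands Insig1 ran 81.3, 79.2, 64.3, 52.1 and 44.9 CPM. Sqle ran 160, 159, 139, 112 and 96.0 CPM, and Hmgcs1 ran 488, 490, 442, 364 and 365 CPM. The level was therefore lower where muscle markers were higher, for these 3 genes, but the cells were also shallower, with a median of 28236.5 UMIs in the last band and 37031.5 UMIs in the first.

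Knockout cells were placed in the same way by mesenchymal markers, in bands of under 5, 5 to 10, 10 to 20, 20 to 30, and 30 or more per 10000 UMIs. In both libraries the cells named above as left out, and also those past the cardiomyocyte gate, were left out of these bands. Idi1 ran 134, 110, 106, 94.3 and 74.9 CPM over them, and Fdps ran 143, 125, 117, 104 and 87.9 CPM. Dhcr7 ran 31.9, 28.8, 26.4, 24.4 and 19.7 CPM, while Insig1 ran 60.9, 54.3, 51.6, 52.4 and 50.9 CPM. In control cells, where the last 2 bands were joined for want of cells, Idi1 ran 188, 158, 154 and 149 CPM and Fdps ran 414, 379, 370 and 336 CPM, lower in the last band as in knockout cells. Insig1 ran 72.5, 72.2, 80.8 and 88.6 CPM over the control bands, higher in the last, where the knockout was lower, a difference that was not tested. Dhcr7 ran 59.5, 60.2, 63.8 and 64.7 CPM there, but the intervals of its first and last bands overlapped. Median depth was 31416.5 UMIs in the first and 26891.5 UMIs in the last knockout band, and 38828 and 36252 UMIs in those of the control.

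Within the 4 states that had at least 50 cells in each library, Fdps reached the 1.5-fold size in knockout cells in 4 of 4. These 4 include cells of no gate, a remainder whose makeup may differ between the libraries. Fdps is given first. Its log2 ratio was -1.71 in mesenchymal-like cells, -1.56 in endothelial-like cells, -0.82 in visceral endoderm-like cells and -1.65 in cells of no gate. With a correction for transcript length and GC content, described below, Fdps came to -0.55 in visceral endoderm-like cells, under 1.5-fold. Elsewhere it stayed past that size, at -1.45 in mesenchymal-like, -1.33 in endothelial-like and -1.38 in cells of no gate. In mesenchymal-like cells it stood at 110 CPM in the knockout library and 362 CPM in the control. The medians over single cells there were 85.5 CPM in the knockout library, with quartiles of 39.5 and 150 CPM, and 281 CPM in the control, with quartiles of 145 and 467 CPM, so the upper quartile of knockout cells just passed the lower quartile of control cells.

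The other members differed by state. In mesenchymal-like knockout cells 6 of the 8 were lower by 1.5-fold or more, beside 2.93% of all genes measured there. In endothelial-like cells 7 were lower, beside 4.42% of genes, in cells of no gate 5, beside 4.44%, and in visceral endoderm-like cells 1, beside 4.4%. After the length and GC correction 6 were lower in mesenchymal-like, 8 in endothelial-like, 5 in no gate and 0 in visceral endoderm-like cells. The share of all genes after the correction is not given within states. Median log2 ratios of the 8 were -0.74 in mesenchymal-like, -0.88 in endothelial-like, -0.68 in no gate and -0.28 in visceral endoderm-like cells.

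Among endothelial-like cells Lss stood at 18.3 CPM in the knockout library and 43.6 CPM in the control, a log2 ratio of -1.21. Dhcr7 stood at 37.2 CPM in endothelial-like knockout cells and 86.7 CPM in endothelial-like control cells, a log2 ratio of -1.20. Hmgcs1 was the member with the ratio nearest 0 there, at -0.50. In visceral endoderm-like cells Insig1 stood at 79.2 CPM in the knockout library (74.1 to 84.6) and 74.2 CPM in the control (68.3 to 80.6), a log2 ratio of 0.09 with overlapping intervals. Lss had overlapping intervals there as well, at 22.9 CPM in knockout and 24.6 CPM in control cells.

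**Figure D2:**
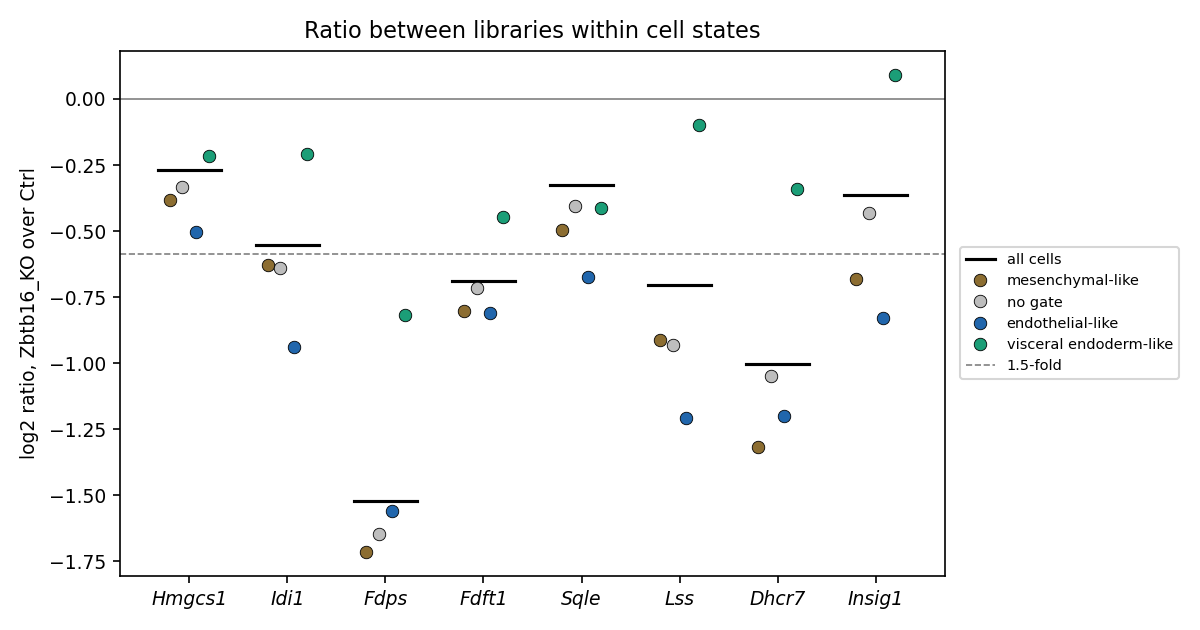
Log2 ratio of CPM, Zbtb16_KO over Ctrl, for the 8 genes within 4 cell states (points) and over all cells (black lines), with the 1.5-fold size dashed. Cells of no gate are a remainder drawn as a state. Fdps lies between -1.71 and -0.82 in the 4 states, and the visceral endoderm-like points lie nearest 0 for 7 of the 8 genes.

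Depth of the cell moved with these levels, and more so in the control library. From cells of 15000 to 30000 UMIs to those above 60000 UMIs, the 8 genes stood 1.09- to 1.41-fold higher in the knockout library and 1.55- to 2.33-fold higher in the control. In knockout cells Hmgcs1 ran 363, 381 and 397 CPM over 15000 to 30000, 30000 to 60000 and over 60000 UMIs, and in control cells it ran 303, 473 and 502 CPM. Fdps ran 114, 135 and 158 CPM in knockout cells and 234, 388 and 446 CPM in control cells.

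The ratio between libraries therefore depended on the depth band. In cells of 15000 to 30000 UMIs, 2 of the 8 genes reached the 1.5-fold reduction, beside 8.68% of genes, and the median log2 ratio was -0.05. The 2 were Fdps at -1.03 and Dhcr7 at -0.62. Hmgcs1 had the opposite sign there, at 0.26, and so had Sqle at 0.04 and Insig1 at 0.08. In cells of 30000 to 60000 UMIs 4 genes were lower, beside 5.3% of genes, with a median of -0.60, and above 60000 UMIs 4 were lower, beside 4.09%, with a median of -0.66.

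Makeup differed in the shallow band too, where 0.306% of knockout cells and 37.4% of control cells passed the cardiomyocyte gate. Within states, shallow cells gave mixed values. In mesenchymal-like cells the median log2 ratio of the 8 genes was -0.76 at 30000 to 60000 UMIs and -0.63 above 60000 UMIs. At 15000 to 30000 UMIs, from 2386 knockout and 249 control cells, it was -0.53. Hmgcs1 had 0.02 there and Fdps -1.35, against -0.31 and -1.64 above 60000 UMIs. Insig1 had -0.56 and Sqle -0.30 in those shallow cells, so neither had the opposite sign, and Insig1 had -0.45 above 60000 UMIs. In cells of no gate the median was -0.15 in the shallow band and -0.80 above 60000 UMIs, and in the shallow band Hmgcs1 stood at 0.13, Insig1 at -0.09 and Sqle at -0.10. Median mitochondrial shares in the shallow band were 5.34% in knockout cells and 4.58% in control cells. The part of depth in the difference between libraries was not tested.

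**Figure D3:**
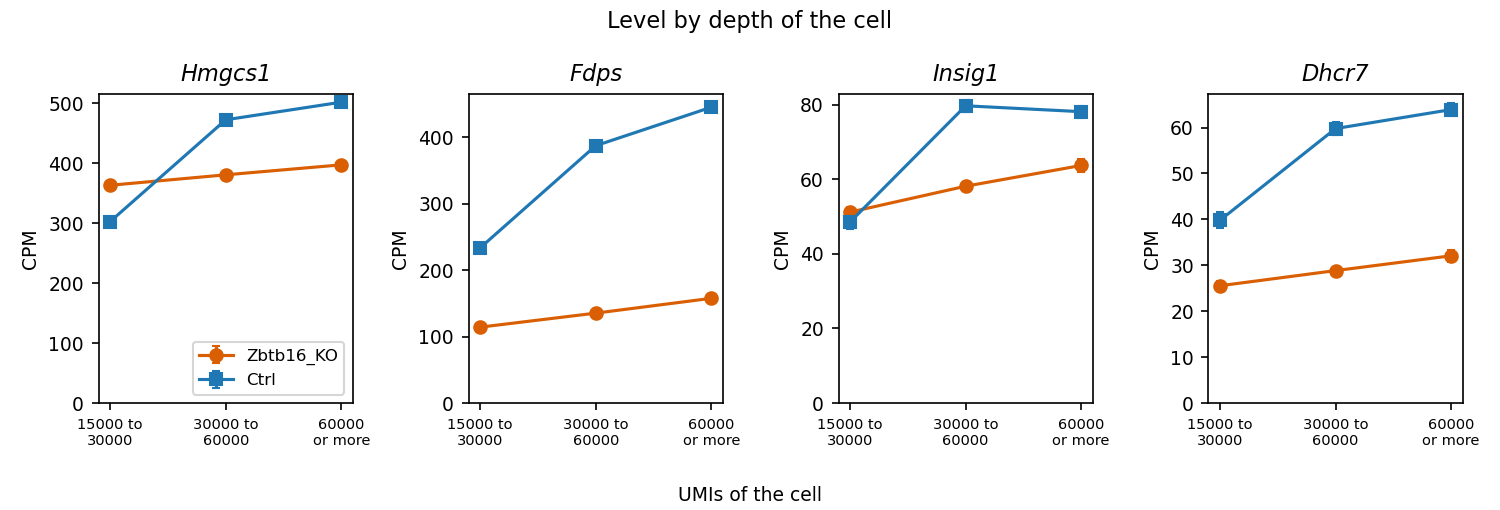
CPM of 4 of the genes in cells of 15000 to 30000, 30000 to 60000, and 60000 or more UMIs, for Zbtb16_KO (circles) and Ctrl (squares), with exact 95% counting intervals. Hmgcs1 and Insig1 cross between libraries in the shallowest cells, while Fdps and Dhcr7 are lower in Zbtb16_KO in every band.

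Single cells were thinned to 15000 UMIs each to compare them at 1 depth. Fdps then had at least 1 UMI in 74.2% of knockout cells (exact interval 73.3 to 75.1) and 91.0% of control cells (90.3 to 91.7), against 88.4% and 96.8% unthinned in the knockout and control libraries. Dhcr7 had a UMI in 32.1% of knockout cells and 48.1% of control cells, against 54.6% and 73.5% unthinned. For Hmgcs1 the thinned shares were 94.0% of knockout cells and 93.1% of control cells, although its thinned mean was 5.54 UMIs in knockout cells and 6.34 UMIs in control cells. Hmgcs1 counts were more spread in the control library, with a variance 3.15 times the mean in knockout cells and 4.22 times the mean in control cells. No state is known to lack these genes, so no background share can be read from another cell type.

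The other enzymes of cholesterol synthesis completed the pathway. Of 14 listed, 13 were measured, 6 were lower by 1.5-fold or more in knockout cells and 0 were higher, with a median log2 ratio of -0.40, beside 5.06% of all genes lower and 12.7% higher. Acat2, which starts the route from acetyl-CoA, stood at 148 CPM in knockout cells and 260 CPM in control cells. Mvd, which makes isopentenyl diphosphate, had a log2 ratio of -1.22, and Nsdhl and Msmo1, which strip methyl groups from the sterol ring, had -1.07 and -0.87. The remaining 2 lower genes were the mevalonate kinases Mvk, at -0.74, and Pmvk, at -0.90, both named after their values were seen. After the correction for transcript length and GC content described next, Mvk came to -0.47, under 1.5-fold, which left 5 lower. Cyp51, a demethylase also named after its values were seen, had 0.06, and Lbr, a sterol reductase that is also a lamin receptor, had 0.46.

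Transcript length moved with these ratios. Over the 20 measured enzymes of the full pathway, Spearman's rho between the ratio and the length of the longest coding transcript was 0.72, a description across genes, which are not independent. Over all 8353 genes it was 0.50. Fdps has the shortest such transcript of the 8 genes, 1382 bases, and Lss the longest, 4667 bases. After a correction for length and GC content fitted over all genes, Fdps had a log2 ratio of -1.26, Dhcr7 of -0.96, Lss of -0.89, Fdft1 of -0.77, Idi1 of -0.63, Hmgcs1 of -0.39, Insig1 of -0.38 and Sqle of -0.33. That made 5 of the 8 lower by the 1.5-fold size, beside 5.29% of genes, and 7.13% of genes were higher by that size. Over the full pathway 10 of 20 were lower before the correction and 10 of 20 after it, with Idi1 gained and Mvk lost.

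**Figure D4:**
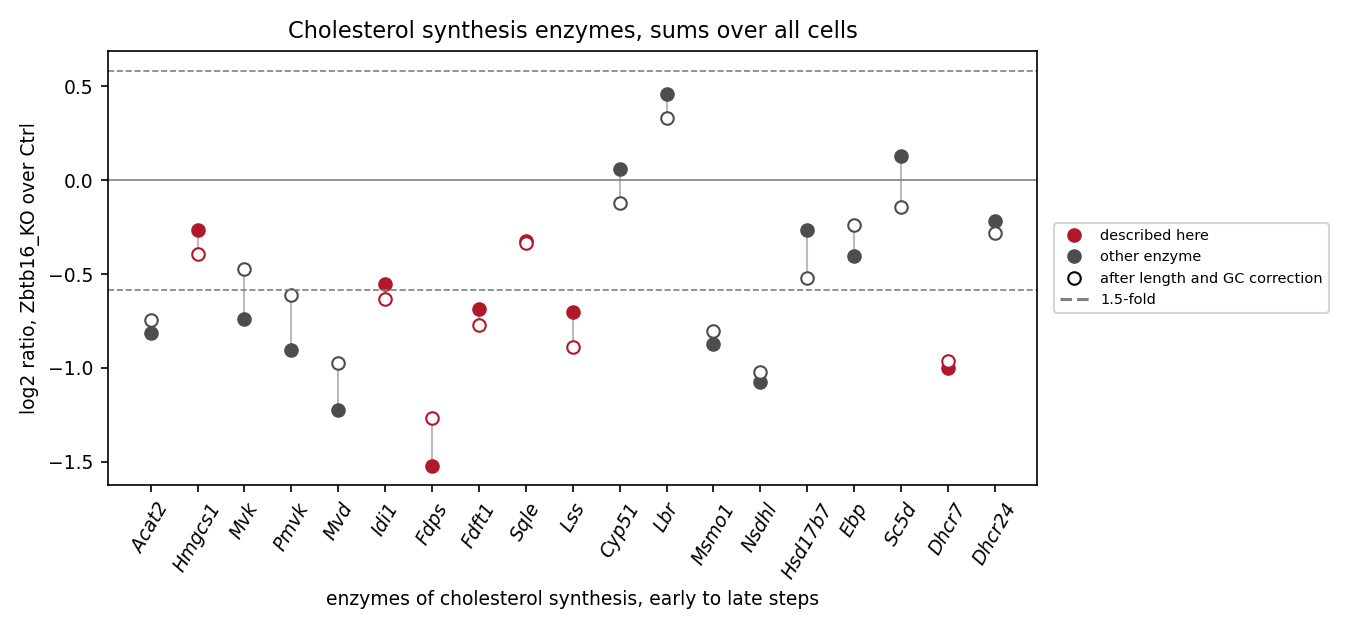
Log2 ratio of CPM, Zbtb16_KO over Ctrl, for 19 of the 20 measured enzymes of cholesterol synthesis, ordered along the pathway, as summed (filled) and after correction for transcript length and GC content (open). The 7 enzymes described here, in red, all lie below 0, and Lbr lies furthest above it.

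Of 11 listed genes that sense sterols or process SREBP, 9 were measured, with a median log2 ratio of 0.01, 0 lower and 2 higher, beside 12.7% of all genes higher. Srebf2, the gene of SREBP2, stood at 78.7 CPM in knockout cells and 83.9 CPM in control cells. Srebf1 had a log2 ratio of -0.31, Insig2 of 0.01 and the SREBP protease gene Mbtps1 of 0.10. The 2 higher genes were Erlin1 at 1.28 and Erlin2 at 0.78, which encode membrane proteins of the endoplasmic reticulum, and Erlin2 came to 0.51 after the length and GC correction, under 1.5-fold. Within states, Srebf2 had a log2 ratio of 0.45 in visceral endoderm-like cells, -0.19 in mesenchymal-like, -0.27 in endothelial-like and -0.15 in cells of no gate.

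Of 14 listed uptake and transport genes, 10 were measured, 1 was at least 1.5-fold lower, the sterol carrier gene Stard5 at -0.97, and 0 were higher, beside the 5.06% and 12.7% of all genes. Npc2, a lysosomal cholesterol carrier, had 0.25, its partner Npc1 0.45, the HDL receptor gene Scarb1 -0.14 and Tmem97 -0.04.

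In the list of efflux, esterification and oxysterol genes, 5 of 11 were measured. Of these 1 was higher and 0 lower, beside 12.7% of all genes higher and 5.06% lower. The higher one was Soat1, which esterifies cholesterol for storage, at 194 CPM in knockout cells and 104 CPM in control cells, but its log2 ratio of 0.90 came to 0.47 after the correction, under 1.5-fold. Abca1, the cholesterol efflux pump, had 0.53, Apoe -0.51 and Lpcat3 -0.04. Of 15 fatty acid genes linked to SREBP1, 12 were measured, 3 were lower and 1 higher, beside the same 5.06% and 12.7% of all genes. Their median of -0.12 came to -0.42 after the correction. There Scd1, at -0.61, made 4 lower, beside 5.29% of genes. The lower ones were Acly at -0.66, Fads2 at -0.81 and Pcyt2 at -0.82, and the higher one was malic enzyme, Me1, at 0.77. The non-sterol isoprenoid branch had 10 of 11 measured, 0 lower and 2 higher, beside 12.7% of all genes, with a median of 0.03. Those 2 were Nus1 at 0.79 and Pggt1b at 0.61, and both were under 1.5-fold after the correction, at 0.52 and 0.18.

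The genes also varied together among cells of 1 state. Over the 28 pairs of members, the median Pearson correlation of thinned log counts lay between 0.13 and 0.20 in the 6 knockout states and between 0.25 and 0.33 in the 6 control states. The highest pair in the knockout library was Hmgcs1 with Idi1 at 0.55 in 202 visceral endoderm-like cells, and in the control library Hmgcs1 with Fdps at 0.58 in 983 cells past the cardiac progenitor gate. Cells of a state share a library, and most of these correlations are weak in sparse counts. Thinned means of all members were lower in the knockout library. Over all cells, that of Fdps was 1.86 UMIs in knockout and 5.16 UMIs in control cells, and that of Dhcr7 0.412 and 0.795 UMIs. The part of these levels, or of depth, in the difference in correlation between libraries was not tested.

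A sum over cells shows the same covariation with less noise. Cells were ranked by their level of Hmgcs1 within each state, and the top and bottom 25% were summed, 2330 cells each in the knockout library and 1563 cells each in the control. All 7 other genes were at least 1.5-fold higher in the top cells in both libraries, beside 0.372% of genes in the knockout library and 0.903% in the control. Idi1 stood at 181 CPM in the top and 58.9 CPM in the bottom cells of the knockout library, and at 279 CPM in the top and 71.0 CPM in the bottom cells of the control. Fdps, low as it was in the knockout library, stood at 188 CPM in its top and 83.4 CPM in its bottom cells, and at 584 CPM in the top and 186 CPM in the bottom cells of the control. Insig1, the brake on the pathway, stood at 82.4 CPM in the top and 33.1 CPM in the bottom cells of the knockout library, and at 109 CPM in the top and 36.8 CPM in the bottom cells of the control.

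Top cells were deeper, and more so in the control library. Medians were 30676.5 UMIs in top and 28775.5 UMIs in bottom cells of the knockout library, and 42302 and 31834 UMIs in those of the control. In cells of 30000 to 60000 UMIs alone the log2 ratio of Idi1 was 1.60 in the knockout library and 2.07 in the control, and that of Fdps 1.18 in the knockout library and 1.72 in the control.

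Of the other enzymes, 10 of 13 were at least 1.5-fold higher in top cells of the knockout library and 12 of 14 in those of the control. Msmo1 had log2 ratios of 1.79 in the knockout library and 2.27 in the control. Srebf2 had 0.41 in the knockout library and 0.56 in the control, Insig2 0.11 in the knockout library and 0.00 in the control, and the efflux gene Abca1 went the other way, at -0.63 in the knockout library, where 0.156% of genes were lower by 1.5-fold, and -0.75 in the control, where 1.07% were. Members and other enzymes of the pathway were 17 of the first 30 genes by this ratio in each library.

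**Figure D5:**
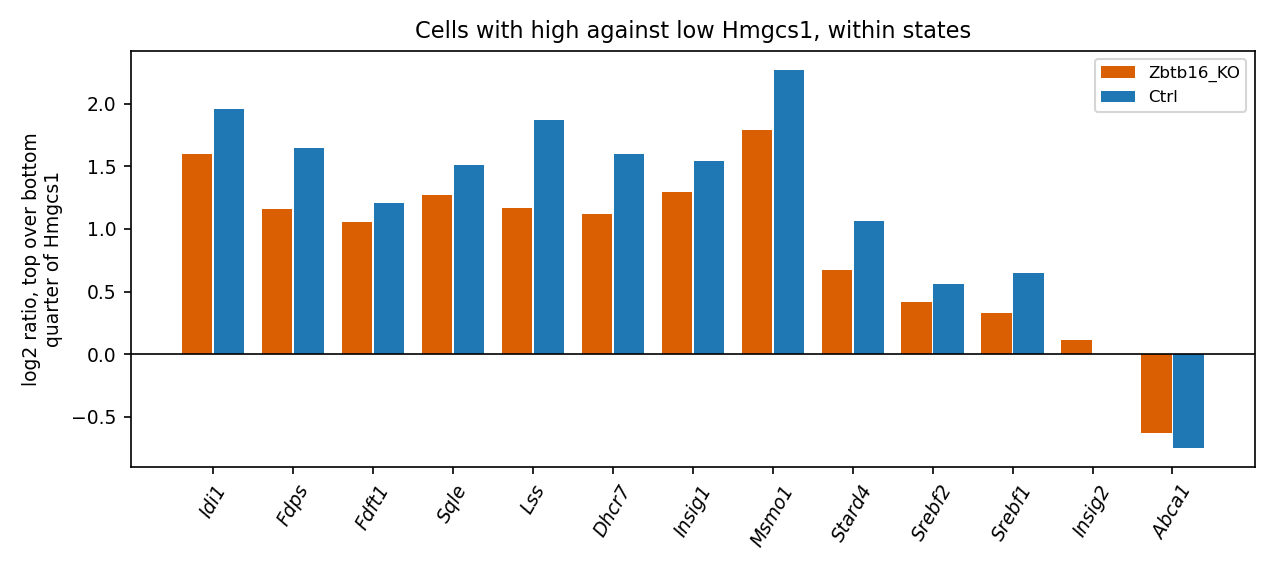
Log2 ratio of CPM between the top and bottom 25% of cells by Hmgcs1, ranked within states, for the 7 other genes and 6 related genes, in Zbtb16_KO (left bars) and Ctrl (right bars); no error is drawn. The enzymes and Insig1 are above 1 in both libraries, Insig2 is near 0 and Abca1 is below 0.

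Across the 12 sums of a state in a library, the genes fell into a pattern that other genes shared. The mean z-scored profile of the 8 was compared with each of 6327 other genes at 20 CPM or more by Pearson correlation of log2 CPM plus 1, and sums of 1 library share their cultures and depth. The 10 most alike were Msmo1 at 0.97, then Timm10b, Por, Alad, Aacs, Hint1, Pmvk, Mvd, Fads2 and Prkag1, the last at 0.91. With each library centred on its own mean, which leaves the differences between states, Mvd came first at 0.95, then Map2k3, Vars and Rad51ap1, which are not in the pathway, and Pmvk at 0.92. Msmo1 and Aacs stayed among the first 10, while Timm10b came to place 32, Alad to 80 and Prkag1 to 111. Among the 8 genes themselves, with the difference between libraries left in, the closest pairs were Fdps with Dhcr7 at 0.96 and Fdft1 with Dhcr7 at 0.95. With each library centred, the closest were Hmgcs1 with Sqle at 0.91 and Fdft1 with Dhcr7 at 0.91, and Fdps with Dhcr7 had 0.88.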

How the data were processed

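Cells of 1 knockout and 1 control culture were profiled by droplet single-cell RNA sequencing with an MGI DNBelab kit, per the labels' protocols. The deposited values are raw UMI counts for every gene in every barcode, in matrices written by Cell Ranger 4 per the file headers. Per the submitters' processing notes, R 4.1.1 was also used and GRCm39 and mm39 are named as builds. The step from DNBelab barcodes to the form Cell Ranger writes is not stated in those sources. Feature and barcode lists were used for names.

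The 8 genes, all lists and markers, and the comparisons were chosen with earlier results of these data known. Barcodes with at least 15000 UMIs and at most 10% mitochondrial UMIs were kept, which left out 50 knockout and 24 control barcodes for mitochondrial share and kept 96.0% of the knockout library's UMIs and 94.8% of the control's. No doublet caller was run, and the 15 knockout and 53 control cells past more than 1 gate were set aside. Gates on summed markers per 10000 UMIs were 30 for cardiomyocyte, 15 endothelial, 10 visceral endoderm, 8 pluripotent, 20 haematopoietic, 3 posterior mesoderm, 10 cardiac progenitor and 10 mesenchymal. A mesothelial gate was dropped after its leading genes proved mesenchymal. Near a gate, within 20% of it, lay 1910 knockout and 681 control cells for the mesenchymal gate and 911 control cells for the cardiac progenitor gate.

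Counts were summed and scaled to CPM, and a prior of 1 CPM was added before log2 ratios were formed. Intervals are exact Poisson or Clopper-Pearson. A gene was measured at 10 CPM averaged over both libraries. Named genes are the 8 and Srebf1, Srebf2 and Insig2 always, and from each list up to 4 with the highest mean CPM and 2 with the largest ratios. Some genes that this rule names are counted in the lists but not reported here. The genes of the plot of top over bottom cells and the score and depth bands were chosen after values were seen. Length and GC came from GENCODE M21 on GRCm38 for 99.96% of genes, and the correction was a lowess (fraction 0.3). Near-identical transcripts were found with blastn 2.17.0. Promoters came from RefSeq on GRCm38.p6, which is not the build in the notes, and the count files carry no coordinates. Tools were Python 3.11.15, numpy 2.4.6, scipy 1.17.1, pandas 2.3.3, statsmodels 0.14.6 and, for TMM scaling, edgeR 4.0.16 in R 4.3.3. The ratio was tested on simulated data. Alternatives covered scaling, UMI and mitochondrial limits, weight per cell, thinning, the prior, the filter, length and GC, free RNA, gates and depth.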

Additional observations from a re-analysis of the deposited data

Results flagged for a closer look

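Insig1 was singled out because its ratio between libraries had the opposite sign in 2 cell states. Its log2 ratio, knockout over control, was 0.092 in visceral endoderm-like cells, from 202 knockout and 104 control cells, and -0.83 in endothelial-like cells, from 413 knockout and 268 control cells. With 1 library per group this difference was not tested, and the intervals of both libraries overlapped in visceral endoderm-like cells.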

How the results depend on the processing

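No paired analysis was possible because there was 1 library per group and no test. No ratio counted at 1.5-fold changed sign. Hmgcs1, Sqle and Insig1, which were not counted, had the opposite sign in cells of 15000 to 30000 UMIs, at 0.26, 0.04 and 0.08. Over 17 settings the log2 ratio of Fdps lay between -1.65 and -1.03 and that of Dhcr7 between -1.17 and -0.62, and both genes reached the 1.5-fold reduction in 17 of 17. Fdft1 and Lss did so in 16 of 17, and both missed in cells of 15000 to 30000 UMIs, at -0.34 and -0.04. Idi1 did so in 3 of 17, with the length and GC correction, without cardiomyocyte-gated cells, and with states weighted to the knockout's shares. That weighting kept only the states with at least 50 cells in each library and was applied to both libraries.

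The median log2 ratio of the 8 genes, -0.62 as reported, was -0.49 with at most 5% mitochondrial UMIs, -0.54 with equal weight per cell, -0.54 with each cell thinned to 15000 UMIs, -0.57 with a prior of 5 CPM and -0.048 in cells of 15000 to 30000 UMIs. In those shallow cells 2 of the 8 were at least 1.5-fold lower, against 4 as reported. In visceral endoderm-like cells 2 were lower after thinning, against 1 as reported, as Dhcr7 came to -0.62. With the length and GC correction 0 were lower in those cells. The cause was not tested. The bands of 30000 to 60000 and over 60000 UMIs and the weighting to the knockout's shares were chosen after seeing the data. With a filter of 50 CPM on average, the calls of Stard5, both Erlin genes, Mvd, Mvk, Fads2, Pcyt2 and Pggt1b were lost. That left 4 other enzymes and 1 fatty acid gene lower and 1 isoprenoid gene higher. The share of all genes called at that filter is not given, so these counts have no background beside them. Lss and Dhcr7 also lie under that filter. TMM scaling moved the median of all genes to 0.04, against 0.03 as reported. Depth limits Lss most, with a UMI in 19.7% of knockout and 26.8% of control cells at 15000 UMIs.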

Other observations

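The small haematopoietic gate, which 29 knockout cells and 0 control cells passed, lay outside the comparisons above because it held fewer than 50 cells. Summed over those 29 cells, Fdps stood at 475 CPM and Idi1 at 346 CPM, above every knockout state with at least 50 cells, while Hmgcs1 stood at 197 CPM, below all of them. Lss stood at 37.2 CPM and Insig1 at 115 CPM. Among the first 30 genes by the ratio of top over bottom Hmgcs1 cells that belong to none of the lists, Tagln, a smooth muscle actin-binding protein, had log2 ratios of 1.28 in the knockout library and 1.66 in the control, and Aacs, which makes acetoacetyl-CoA from acetoacetate, had 1.05 and 1.70 in knockout and control cells. Both were named after their values were seen.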
